A study of Mus musculus with 4 samples.

Results

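Regulatory T (Treg) cells were described in single-cell RNA sequencing of subcutaneous MC38 tumors. A cell barcode with more than 500 genes was taken as a Treg cell when it held at least 1 UMI (a unique molecular identifier, 1 captured mRNA molecule) of Cd3d, Cd3e or Cd3g, at least 1 UMI of Foxp3, and 0 UMIs of Cd8a, Cd8b1, C1qa and Hmga2. This gate found 497 Treg cells among 31143 cells, or 1.60%. MC38 is a mouse colon adenocarcinoma line, and the tumors grew in C57BL/6 mice. In the RAC1A159V tumors an engineered single-cell clone of the line carried the A159V substitution in RAC1, a small GTPase of the cytoskeleton, at the gene's own locus. The mutation was therefore in the tumor cells and not in the Treg cells, which came from the host. Mice received anti-PD1, an antibody that blocks an inhibitory receptor of T cells, or an IgG isotype control. There were 4 libraries, 1 for each pairing of tumor and antibody, named WT IgG and WT anti-PD1 for the unmodified line and A159V IgG and A159V anti-PD1 for the mutant. Values are given in this order. With 1 library per group there was no replicate of any condition, the number of mice behind a library was not given in the sources used here, and differences between conditions carry no test.

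Treg cells are CD4 T cells that hold other lymphocytes in check. The transcription factor Foxp3 defines them, the high-affinity IL-2 receptor chain Il2ra lets them take up IL-2, and the checkpoint receptor Ctla4 removes costimulatory ligands from antigen-presenting cells. In tumors they often carry effector features, such as the costimulatory receptors Tnfrsf9 (4-1BB), Tnfrsf4 (OX40), Tnfrsf18 (GITR) and Icos and the chemokine receptor Ccr8, while Treg cells of lymphoid organs keep Ccr7 and Tcf7. Ikzf2 (Helios) and Ikzf4 (Eos) are transcription factors that work with Foxp3.

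The libraries held between 6840 and 8879 cells over 500 genes and between 54402632 and 125227747 UMIs, with the lowest total in WT anti-PD1. Median UMIs per T cell were 3299 with IgG and 3572 with anti-PD1 in WT tumors, and 2169 and 2650 in A159V tumors, so the A159V T cells were shallower. The libraries shared 12 to 18 barcodes per pair, and no Treg barcode was a Treg cell in another library as well. Levels below are UMIs summed over the Treg cells of a library per 1e6 (CPM), and their intervals are 95% ranges for counting error alone.

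The gate gave 128 Treg cells with IgG and 165 with anti-PD1 in WT tumors, and 61 and 143 in A159V tumors. Their median depth was 3039.5, 3362, 2805 and 2959 UMIs in the same order, and their summed UMIs were 532049, 854434, 251208 and 577006. The A159V IgG set was thus the smallest, and 1 UMI in it was worth 3.98 CPM, against 1.17 to 1.88 CPM in the others. A few deep cells weighed heavily there, since its 10 deepest Treg cells held 48.5% of the UMIs, against 20.1 to 24.9% in the other libraries. The cells were selected on Foxp3 (chromosome X, 7573644 to 7595245, plus strand, GRCm38), and its level of 408 CPM with IgG and 475 with anti-PD1 in WT tumors, and 295 and 438 in A159V tumors, is a description only. Just inside the threshold, a single Foxp3 UMI admitted 70, 69, 50 and 82 of the cells, and the highest number in 1 cell was 11. A Cd4 UMI was found in 32.8 to 49.2% of the Treg cells.

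The 4 other Treg markers were not used by the gate and were present at high level in every library. Ikzf2 (chromosome 1, 69531214 to 69687245, minus strand) stood at 4671 CPM with IgG and 5174 with anti-PD1 in WT tumors, and 2603 and 4230 in A159V tumors. Ctla4 (chromosome 1, 60887000 to 60915832, plus strand) stood at 1936, 1230, 1075 and 1452 CPM in that order. Il2ra (chromosome 2, 11642807 to 11693193, plus strand) was at 842, 1426, 752 and 1023 CPM, and Tnfrsf4 (chromosome 4, 156013843 to 156016612, plus strand) at 1301, 555, 792 and 837 CPM. A159V IgG was the lowest library for Ikzf2, Ctla4 and Il2ra, and WT anti-PD1 the lowest for Tnfrsf4. At least 2 of these 4 markers had a UMI in 94.0 to 100% of the cells with 1 Foxp3 UMI and in 90.9 to 100% of those with more. Just outside the gate, in Cd4-positive T cells with 0 Foxp3 UMIs, the same was true of 49.5% with IgG and 67.1% with anti-PD1 in WT tumors, and 64.0% and 54.5% in A159V tumors, and 0 Foxp3 UMIs at this depth does not show that a cell lacked Foxp3. The gate held 76.6, 62.7, 71.8 and 72.6% of the cells with a Foxp3 UMI, in the order of libraries above. Another 11.4 to 18.8% of them had no Cd3d, Cd3e or Cd3g UMI. A Foxp3 UMI was found in 0.211 to 0.450% of macrophages, at median depths of 3096 to 6036 UMIs, and in up to 1.62% of NK cells. It was found in 1.29 to 4.90% of CD8 T cells, and reached 4.40% of tumor cells in WT anti-PD1, where 91 tumor cells had a median of 34610 UMIs.

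Treg cells made up a smaller share of T cells in A159V IgG than in the other libraries. They were 12.1% of T cells with IgG (10.2 to 14.2%) and 12.4% with anti-PD1 (10.7 to 14.3%) in WT tumors, and 7.14% (5.51 to 9.08%) and 12.1% (10.3 to 14.1%) in A159V tumors. Only the A159V IgG interval lay apart from those of the other libraries. The T cells counted here include cells without a UMI of Cd4, Cd8a, Cd8b1 or Foxp3. Of 1061, 1326, 854 and 1183 T cells, in the order of libraries, 387, 543, 230 and 404 were CD8 T cells. Conventional Cd4 T cells were 101, 155, 86 and 110 of them. The part of the unassigned T cells in the lower share was not tested. The A159V IgG share was 0.592 of the WT IgG share (0.442 to 0.792), the anti-PD1 library was 1.03 times the IgG library in WT tumors (0.831 to 1.28), and in A159V tumors it was 1.69 times (1.27 to 2.25). Among Treg and conventional Cd4 T cells together the Treg share was 55.9% with IgG and 51.6% with anti-PD1 in WT tumors, and 41.5% and 56.5% in A159V tumors. Under IgG this order of mutant and WT tumors is the opposite of that reported in the paper by flow cytometry. There, FOXP3 protein marked a larger share of CD4 T cells in A159V tumors, with several mice per group. Under anti-PD1 the share among Treg and conventional Cd4 T cells was higher in A159V here. The counting intervals of that pair overlapped (50.2 to 62.7% in A159V and 45.9 to 57.2% in WT). CD45-positive and CD45-negative cells had been separated and recombined in a chosen proportion, so the share of all cells partly reflects that mixing.

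**Figure D1:**
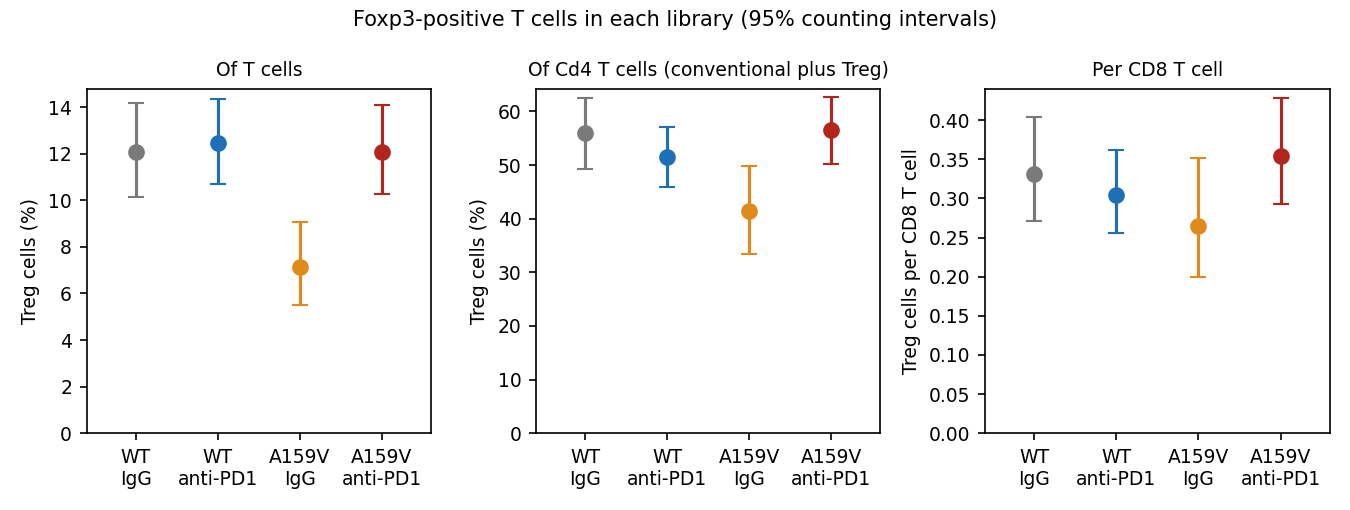
Treg cells in each library as a percentage of T cells, as a percentage of conventional Cd4 plus Treg cells, and per CD8 T cell, with bars for 95% counting intervals. A159V IgG has the lowest value in each panel, at 7.14% of T cells, 41.5% of Cd4 T cells and 0.265 per CD8 T cell.

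Because the gate asks for a captured Foxp3 molecule, depth moves with it. Cells were therefore also thinned to 1500 UMIs each, and 895, 1054, 1419 and 1317 cells below that depth were dropped. Thinning evens out depth but not the Foxp3 level of a cell, so it cannot show how many Treg cells the gate missed. The thinned share of T cells was 8.60% with IgG and 7.79% with anti-PD1 in WT tumors, and 4.35% and 7.74% in A159V tumors. A159V IgG remained the lowest, at 0.505 of WT IgG (0.318 to 0.804), and the A159V anti-PD1 share was 1.78 times that of A159V IgG (1.12 to 2.84). Per CD8 T cell, the Treg count was 0.331 with IgG and 0.304 with anti-PD1 in WT tumors, and 0.265 and 0.354 in A159V tumors. The ratio of A159V IgG to WT IgG in this measure was 0.802 (0.567 to 1.13) and that of A159V anti-PD1 to A159V IgG was 1.33 (0.949 to 1.88), and both intervals include 1. After thinning the A159V IgG value per CD8 T cell was 0.587 of the WT IgG value (0.349 to 0.987). None of these intervals covers the spread between tumors. By flow cytometry the paper reported a higher ratio of Treg cells to IFN-gamma-positive CD8 T cells in A159V tumors. Here the denominator was all CD8 T cells without a Foxp3 UMI, so the measures are not alike.

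The 4 libraries do serve as replicates for a comparison of cell types within them. Treg cells were compared with the 452 Foxp3-negative Cd4 T cells of the same libraries (101, 155, 86 and 110 cells), to ask which genes set Treg cells apart in these tumors. Of 6294 genes tested with edgeR's quasi-likelihood test and a term for each library, 77 rose in Treg cells (1.22%) and 100 fell (1.59%) at an adjusted p under 0.05, and the genes of the gate were left out of the test. The libraries differ in genotype and treatment, and the term for library takes up level differences that both cell types share. The spread in this test is how far the difference between Treg and conventional cells varied from library to library. Without the term for library 0 genes rose and 8 fell.

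Most Treg identity genes rose, with 9 of 12 tested higher and 1 lower. Ikzf2 rose by a log2 fold change of 1.36 ± 0.18 (SE, n = 4 libraries, adjusted p = 0.00219), and was at 1298 to 1803 CPM in the conventional cells. Ctla4 rose by 0.91 ± 0.15 on the log2 scale (adjusted p = 0.00845), Il2ra by 0.81 ± 0.13 (adjusted p = 0.00836) and Tnfrsf4 by 1.08 ± 0.17 (adjusted p = 0.00589). Ikzf4 rose by 1.33 on the log2 scale, Tnfrsf18 by 0.85, and Izumo1r (folate receptor 4, a surface marker of Treg cells) by 1.37. Lrrc32 (GARP) and Itgb8, which together hold and activate latent TGF-beta, rose by 2.02 and 1.29, and Lrrc32 did so in 3 of 4 libraries, with 7.96 CPM in the Treg cells of A159V IgG against 10.5 CPM in its conventional cells. The member that fell was Nrp1 (neuropilin-1), by 1.29 on the log2 scale, at 45.1 to 78.4 CPM in Treg cells and 94.7 to 270 CPM in conventional cells.

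Effector Treg genes were the next group, with 9 of 18 tested genes higher and 1 lower. Klrg1, a receptor of terminally differentiated lymphocytes, was at 120 CPM with IgG and 114 with anti-PD1 in WT tumors, and 167 and 159.4 in A159V tumors, against 53.9, 22.4, 66.6 and 35.5 CPM in the conventional cells. It rose by 1.70 ± 0.24 on the log2 scale (adjusted p = 0.00403). Itgae, the CD103 integrin that binds E-cadherin, rose by 1.56. Tnfrsf9 rose by 1.11, Icos by 0.73, Prdm1 (Blimp-1) by 0.96, Maf by 0.66, Tnfrsf1b (TNF receptor 2) by 0.94, Tnfrsf8 (CD30) by 1.72 and Cd83 by 1.16. Il1rl1, the IL-33 receptor ST2, fell by 0.97, from 56.7 to 496 CPM in conventional cells to 37.6 to 242 CPM in Treg cells.

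The genes that fell furthest included transcription factors of resting T cells and ligands of the TNF family. Tcf7 (TCF1), a factor of naive and stem-like T cells, was at 13.2, 4.68, 3.98 and 5.20 CPM in the Treg cells and at 128, 124, 70.2 and 132 CPM in the conventional cells. It fell by 4.14 ± 0.31 on the log2 scale (adjusted p = 9.46e-05). Bach2, a repressor that keeps T cells in a resting state, fell by 2.39 ± 0.20 (adjusted p = 9.46e-05), with 27.9 to 87.8 CPM in Treg cells and 123 to 601 CPM in conventional cells. The TNF-family ligands Tnfsf8 (CD30 ligand) and Tnfsf11 (RANKL) changed by -5.33 and -4.05. Bcl2, an inhibitor of apoptosis, fell by 2.42. Cxcr6, a receptor of tissue-resident T cells, fell by 2.50, and Themis, a thymocyte signaling protein, fell by 2.16. Pde3b and Pde7a, phosphodiesterases that break down cyclic AMP, changed by -2.43 and -2.04, and the nuclear receptor Pparg by -2.06. Of these named lower genes, only Pparg had Treg and conventional values that overlapped. The named genes were chosen for the same direction in 4 of 4 libraries, and the share of all tested genes without overlap was not counted.

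**Figure D2:**
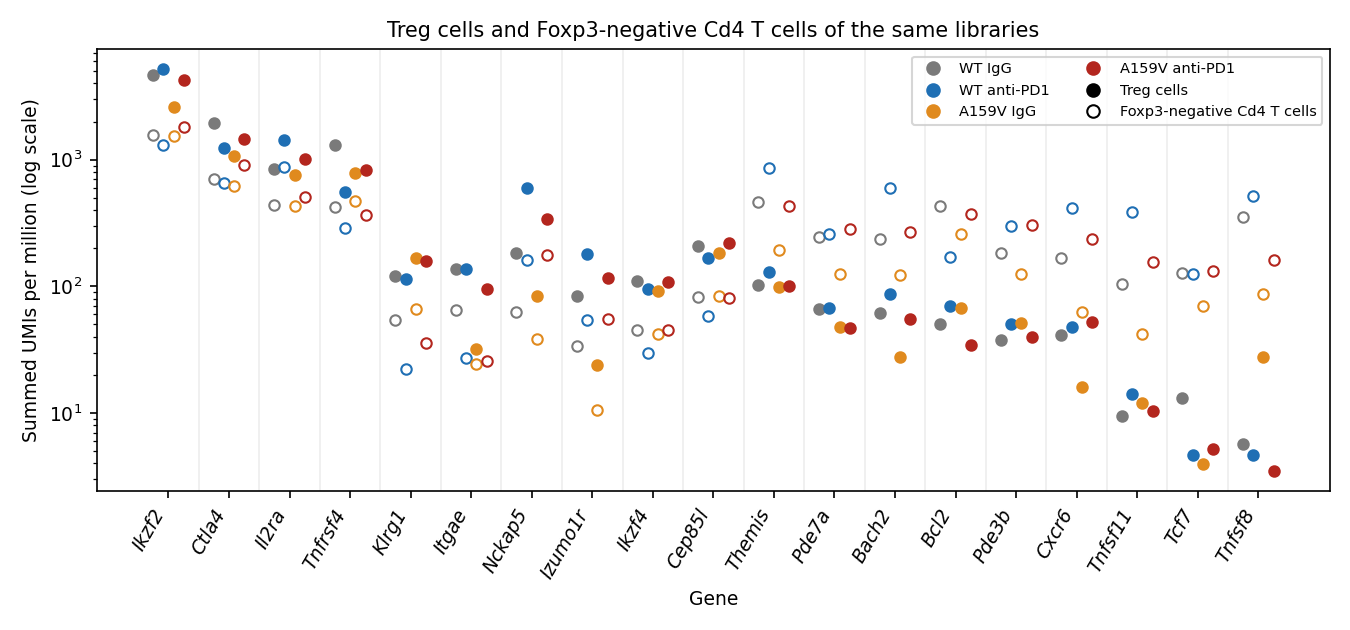
CPM, on a log axis, of the genes named in the comparison of Treg cells with Foxp3-negative Cd4 T cells, with 1 point per cell type and library. Tcf7 was at 3.98 to 13.2 CPM in Treg cells and at 70.2 to 132 CPM in the other cells.

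Other gene groups moved less. Among suppressive molecules, 2 of 15 rose (Ctla4 and the inhibitory receptor Tigit, by 1.13) and 1 fell, Pdcd1, which encodes the target of the antibody. Pdcd1 was at 52.6 CPM with IgG and 31.6 with anti-PD1 in WT tumors, and 63.7 and 38.1 in A159V tumors in Treg cells, against 76.5 to 119 CPM in conventional cells, and fell by 1.20 ± 0.26 on the log2 scale (adjusted p = 0.0307). Of 12 resting lymphoid genes 4 fell (Tcf7, Bach2, Ccr7 and S1pr1) and 1 rose. Of 13 chemokine receptor and homing genes 3 rose, Ccr2 (by 0.68) and Itgb7 (by 0.74) among them, and Cxcr6 and Itgb1 fell. Il2ra and Pim1 rose and Bcl2 and Il18r1 fell among 21 genes of IL-2 and cytokine signaling. In the cell cycle list 3 of 19 genes rose, namely Birc5, Cenpf and Ube2c, while 0 of 27 interferon-stimulated genes and 0 of 13 MHC class I genes passed the test in either direction. Of 10 Th1 genes only Stat4 passed, and it fell by 0.95. Of 17 T cell receptor signal genes only Tnfrsf9 passed. In the glycolysis and hypoxia list only Ddit4 rose among 18 genes, by 0.95, and in the early response list only Btg2 fell among 18, by 0.72. Among the markers of other cell types, the tumor line genes Lgals7 and Rhox5 fell, and no tested gene of the other marker lists passed the test. Outside the lists, Nckap5 (1.41), the centrosomal gene Cep85l (1.33), the phosphatase gene Ppm1l (1.50) and the fibronectin gene Fn1 (1.38) also rose. Fn1 was uneven across libraries, at 71.4, 552, 295 and 114 CPM in the Treg cells. In 11 alternative fits Fn1 kept its call in 4, at log2 changes of 0.21 to 1.72, and Ppm1l in 5. Whether the Fn1 UMIs came from Treg cells was not tested.

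Some calls rested on single libraries, as edgeR fits without 1 library each showed. Ppm1l lost its call without any 1 of the 4 (adjusted p of 0.0777 to 0.200), Fn1 without each library but WT IgG (0.109 to 0.153) and Birc5 without each but A159V IgG (0.0923 to 0.241). Itgae lost it without either antibody library (adjusted p = 0.112 in both fits) and Izumo1r without WT anti-PD1 (0.0918). Without A159V anti-PD1 the calls of Ikzf4 (adjusted p = 0.0534), Pparg (0.0837), Tnfrsf4 (0.0544) and Il2ra (0.0648) were lost, and without WT IgG those of Ctla4 (0.0534) and Il2ra (0.0540). All kept their direction. Klrg1, Ikzf2, Nckap5, Cep85l and the 9 named lower genes other than Pparg kept their calls in each of these fits.

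Most Treg cells had mRNA of an effector receptor. At 1500 UMIs per cell, Tnfrsf9 or Ccr8 was detected in 88.0% of Treg cells with IgG (80.7 to 93.3%) and 69.5% with anti-PD1 (61.6 to 76.6%) in WT tumors, and 77.3% (62.2 to 88.5%) and 80.2% (72.1 to 86.7%) in A159V tumors. Tnfrsf9 alone was detected in 68.2 to 87.2% of the thinned Treg cells (80.6 to 93.8% before thinning) and in 0.615 to 1.30% of thinned stromal cells in the libraries other than WT IgG. The WT anti-PD1 interval lay below that of WT IgG for the pair of receptors.

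The comparison of A159V IgG with WT IgG asks how Treg cells of mutant tumors differed from those of WT tumors under the control antibody. A gene was counted as higher or lower at a ratio of 2-fold or more of CPM + 1, among 2432 genes at 100 CPM or more in 1 of the libraries, and 8.06% were higher and 3.7% lower. Under median-of-ratios scaling the split was 167 higher and 144 lower in place of 196 and 90. The median over all genes was a log2 ratio of -0.048.

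Treg cells of the A159V IgG tumors had less mRNA of several effector and suppressive genes. Itgae stood at 137 CPM in WT IgG and 31.8 in A159V IgG, a log2 ratio of -2.07 (-3.10 to -1.05). Icos, the costimulatory receptor, was at 1276 and 585 CPM, a log2 ratio of -1.12 (-1.38 to -0.87). Prdm1 was at 177 and 79.6 CPM. These were the 3 of 14 effector genes past 2-fold, none was higher, and the list's median was -0.43. Among 11 suppressive genes 3 were lower and none higher, with a median of -0.73. They were Il10, the suppressive cytokine, at 297 and 95.5 CPM, Tigit at 139 and 43.8 CPM, and Nt5e (CD73, which makes adenosine) at 139 and 63.7 CPM. The 10 identity genes included Foxp3, on which the cells were selected. All 10 were lower, by log2 ratios of -0.98 to -0.16, and none passed 2-fold. In the T cell receptor list Cd69 and Nr4a3 were lower and Egr1 was higher among 14 genes, and in the Th1 list Tbx21 (T-bet) and Nkg7 were lower among 6. Of the IL-2 and cytokine list Stat5b alone was lower among 14, and of the resting list Satb1 alone among 7.

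These medians depended on how the Treg cells were drawn. With at least 2 Foxp3 UMIs per cell, which left 11 cells in A159V IgG, the median ratio was 0.028 for identity, 0.46 for effector and 0.14 for suppressive genes. The identity list holds Foxp3, so this setting selects on a gene of that list. Without predicted doublets, which left 50 of the 61 cells, the medians were -0.14, -0.019 and -0.39, so little of the effector difference was left. Without cells over 10000 UMIs they were -0.37, -0.17 and -0.51. With at least 2 Foxp3 UMIs Il10 and Icos had log2 ratios of -0.55 and -0.47, and Tigit -1.14. Over 7 alternative settings all of the named members kept their direction. Itgae and Tigit stayed past 2-fold in 7, Prdm1 in 6, Il10 in 5, Nt5e in 4 and Icos in 2.

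Cd27, a costimulatory receptor of the TNF receptor family (chromosome 6, 125232622 to 125237010, minus strand), was the gene lowest in A159V IgG by the naming rule. It stood at 169 CPM with IgG and 150 with anti-PD1 in WT tumors, and 15.9 and 133 in A159V tumors, from 90, 128, 4 and 77 UMIs. The A159V IgG value lay far below the other 3 libraries, at a log2 ratio to WT IgG of -3.33 (-4.69 to -1.97). In conventional Cd4 T cells Cd27 was at 85.0, 79.6, 91.2 and 67.7 CPM, with no such gap. Cd6, a receptor for ALCAM on antigen-presenting cells, was at 273, 205, 71.7 and 201 CPM and was also lowest in A159V IgG, at a log2 ratio to WT IgG of -1.91. Next to Itgae in that ranking stood the ubiquitin ligase gene March3 (-2.09), the adaptor Sash3 (-2.00) and the histone gene Hist1h2ae (-1.98).

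Single genes of the homing and early response lists were higher, and other integrin genes were lower, such as Itgae above and Itgb8 at 353 and 179 CPM. Itga4 (chromosome 2, 79255426 to 79333123, plus strand), the alpha-4 chain of the homing integrin VLA-4, was at 71.4 CPM with IgG and 170 with anti-PD1 in WT tumors, and 382 and 206 in A159V tumors. WT IgG was lowest and A159V IgG highest, at a log2 ratio of 2.40 (1.87 to 2.94), and at 1500 UMIs per cell Itga4 was detected in 5.13% of Treg cells in WT IgG (12.5% before thinning) and 45.5% in A159V IgG (57.4%). Among stromal cells, thinned alike, it was found in 0.154% in WT anti-PD1 and 0.606% in A159V anti-PD1. Its partner Itgb1 was at 78.9 CPM in WT IgG and 167 in A159V IgG, and the chemokine receptor Ccr1 at 39.5 and 131 CPM. Ier3, an early response gene that guards against apoptosis, was at 126, 137, 1003 and 279 CPM. A159V IgG was also the highest library for Ier3 in conventional Cd4 T cells, with 252, 131, 1063 and 387 CPM. Jun and Atf3 were also past 2-fold among 14 early response genes, whose median was 0.27, as were Hk2 and Pgam1 among 15 glycolysis genes and Rsad2 (152 and 581 CPM) and Oasl1 among 24 interferon-stimulated genes. In the cell cycle and MHC class I lists 0 of 9 and 0 of 13 genes passed 2-fold.

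Of the 6 genes with the highest ratios, all but F13a1 were carried by 1 to 3 cells. Cxcl3 had 51 UMIs in 3 cells of A159V IgG and 0 in WT IgG, at least 36.0-fold higher against a floor of 3 counts in WT IgG. Bbs2 had 42 UMIs in 1 cell, Shisal2b 81 UMIs with 87.7% of them in 1 cell, Cald1 38 in 3 cells, Gdf15 26 in 3 cells and F13a1 31 in 10 cells. Neutrophil markers summed to 959 CPM in the A159V IgG Treg cells against 272 to 511 CPM in the other libraries, macrophage markers to 1190 against 362 to 567 CPM, and tumor line markers to 346 against 45.1 to 86.6 CPM. Their part in the higher genes was not tested.

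**Figure D3:**
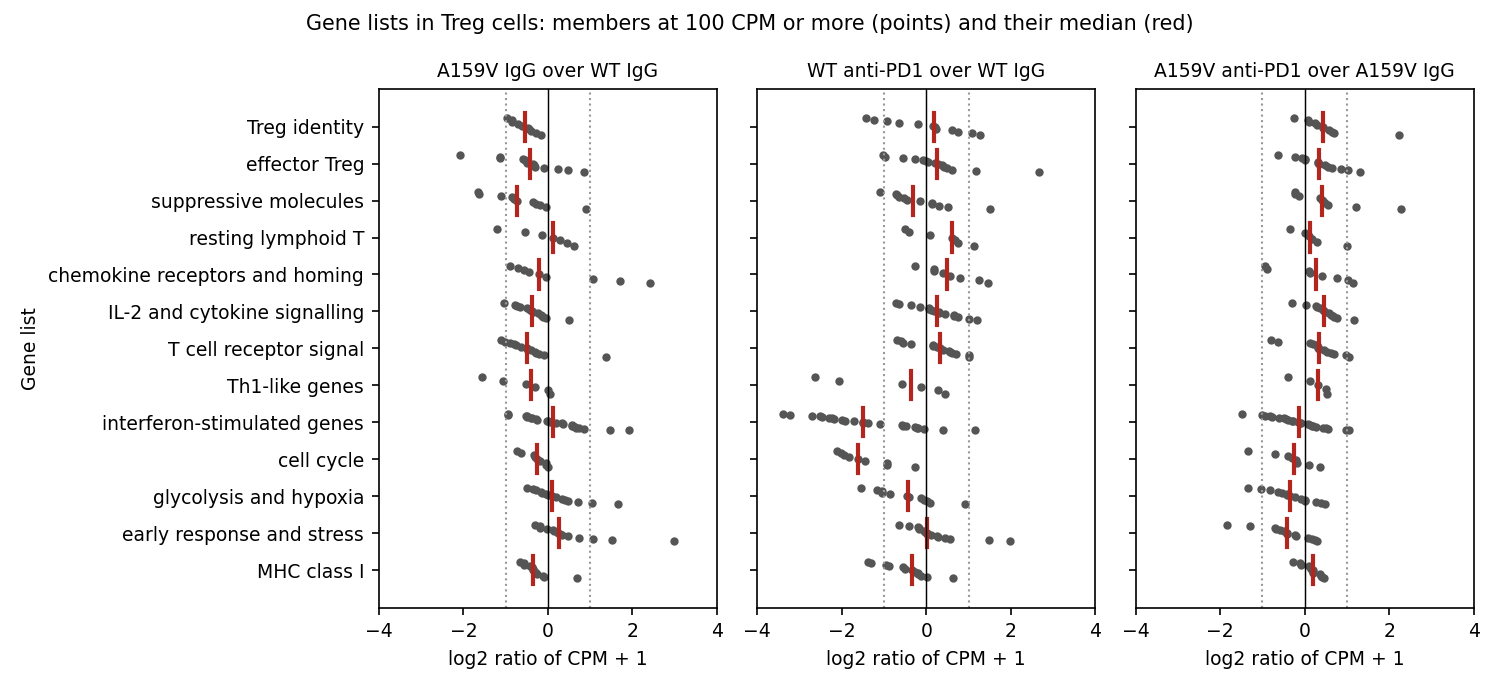
Log2 ratios of CPM + 1 in Treg cells for the genes of 13 lists at 100 CPM or more (points) and their medians (red), in 3 panels for the mutant over the WT tumors under IgG and for anti-PD1 over IgG in either tumor. The medians furthest from 0 are those of the cell cycle list, -1.63, and of the interferon list, -1.50, both in WT anti-PD1 over WT IgG.

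The comparison of WT anti-PD1 with WT IgG asks what went with the antibody in WT tumors. Of 2534 genes 8.68% were at least 2-fold higher and 9.08% lower, and the median over all genes was 0.19. Median-of-ratios scaling gave 160 higher and 305 lower in place of 220 and 230, with a median over all genes of 0.031.

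Interferon-stimulated genes were lower as a group in the Treg cells of WT anti-PD1. Of 24 genes at the minimum, 15 were at least 2-fold lower and 1, the guanylate-binding protein gene Gbp2, was higher (75.2 and 170 CPM), and the list's median log2 ratio was -1.50. Isg15, a ubiquitin-like antiviral protein (chromosome 4, 156199424 to 156200818, minus strand), was at 665 CPM with IgG and 70.2 with anti-PD1 in WT tumors, and 856 and 655 in A159V tumors. WT anti-PD1 stood apart from the other 3 libraries, at a log2 ratio to WT IgG of -3.23 (-3.62 to -2.84). Ifi27l2a (chromosome 12, 103442167 to 103443680, minus strand) was at 5545, 852, 3929 and 4120 CPM in the same order. Ifit3 was at 156, 14.0, 235 and 192 CPM, Irf7, the master factor of the type I interferon response, at 207, 35.1, 307 and 227 CPM, and the viral tether Bst2 at 727, 131, 1131 and 563 CPM. In each of these the WT anti-PD1 value was the lowest.

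Other T cells of that library were low in these genes as well. The list summed to 11681 CPM with IgG and 3584 with anti-PD1 in Treg cells of WT tumors, and to 11313 and 10244 CPM in those of A159V tumors. In conventional Cd4 T cells the sums were 11744, 2931, 10769 and 7829 CPM, and in CD8 T cells 7128, 2910, 6946 and 6278 CPM. At 1500 UMIs per cell Isg15 was detected in 41.0% of Treg cells with IgG and 9.09% with anti-PD1 in WT tumors, and 52.3% and 43.7% in A159V tumors. Before thinning the shares were 53.9, 17.6, 57.4 and 58.0%. In stromal cells, thinned alike, the shares were 52.0, 6.38, 64.3 and 32.1%, and WT anti-PD1 was the lowest there too. With 1 library per group, the antibody and whatever else set that library apart cannot be told apart.

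Cell cycle genes were also lower. Of 9 genes at the minimum 6 were past 2-fold, namely Top2a, Birc5, Cdk1, Ube2c, Stmn1 and Hmgb2, none was higher, and the median was -1.63. Top2a, the topoisomerase of dividing cells, was at 288 CPM with IgG and 92.5 with anti-PD1 in WT tumors, and 227 and 199 in A159V tumors. Birc5 (survivin) was at 145, 39.8, 139 and 84.9 CPM. WT anti-PD1 was lowest for both, and for Mki67 the values were 158, 83.1, 159.2 and 170 CPM. At 1500 UMIs per cell Top2a was detected in 17.1% of Treg cells of the WT tumors with IgG (10.8 to 25.2%) and 5.19% of those with anti-PD1 (2.27 to 9.98%), against 22.7% and 10.3% before thinning and 12.6% and 3.08% of thinned stromal cells.

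**Figure D4:**
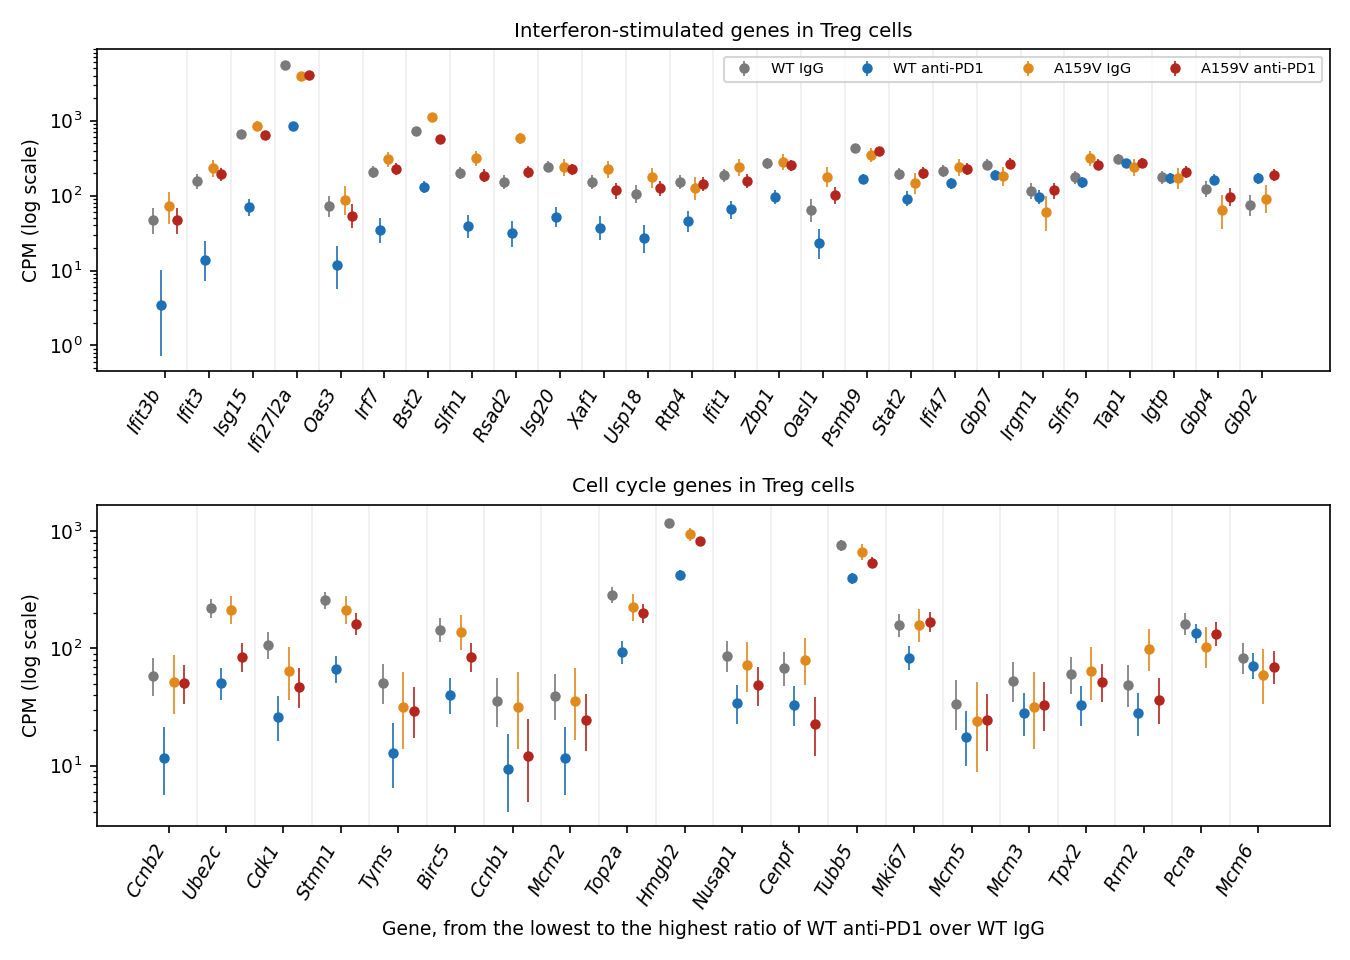
CPM on a log axis of interferon-stimulated genes (top) and cell cycle genes (bottom) in the Treg cells of each library, ordered by the ratio of WT anti-PD1 over WT IgG. For Isg15 the WT anti-PD1 point is at 70.2 CPM and the other 3 libraries are at 655 to 856 CPM.

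Other groups showed single genes. Ccl5, a chemokine of effector T cells, was at 383 CPM with IgG and 60.9 with anti-PD1 in WT tumors, and 382 and 293 in A159V tumors, a log2 ratio of -2.64 (-3.07 to -2.20) for the first pair. Nkg7, a cytotoxic granule protein, was at 218, 51.5, 104 and 151 CPM. They were the 2 of 6 Th1 genes past 2-fold, and the antibody library was again the lowest for both. Gapdh, Eno1, Ldha and Ddit4 were lower among 12 glycolysis and hypoxia genes, and the immunoproteasome subunits Psmb8 and Psmb9 among 13 MHC class I genes. Il1rl1 was higher, at 37.6 CPM with IgG and 242 with anti-PD1 in WT tumors, and 83.6 and 153 in A159V tumors, a log2 ratio of 2.66 (2.01 to 3.30) in WT tumors. Gata3, a factor that supports Il1rl1 expression, was at 101 and 231 CPM, and Areg, a tissue-repair growth factor, was the 1 lower gene among 16 effector genes. The checkpoint receptor Lag3 was at 71.4 CPM in WT IgG and 206 in WT anti-PD1, while Lgals1 (galectin-1) was at 1615 and 753 CPM. Among 12 identity genes, Foxp3 included, Lrrc32 and Izumo1r were higher and Tnfrsf4 and Capg lower. Itga4 and Itgb1 were higher among 8 homing genes, Socs2 and Pim1 among 16 cytokine signaling genes, Egr1 and Nfatc1 among 15 T cell receptor genes, Hspa1a and Hspa1b among 16 early response genes and Foxp1 among 7 resting genes.

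By the naming rule the lowest ratios belonged to Hist1h2ae (-3.42), Isg15, Penk (proenkephalin, -3.15), Ifi208 (-2.81), Hist1h2ap (-2.73) and Ifi27l2a (-2.70). Penk came from 11 cells in WT IgG and 5 in WT anti-PD1. The highest ratios came from few cells. Cthrc1 had 138 UMIs in 10 cells (at least 28.6-fold higher than the floor of 3 counts in WT IgG), Igfbp7 115 in 12 cells (at least 23.9-fold), Prss23 112 in 9 cells (at least 23.2-fold), Mfap5 144 in 8 cells, Col4a1 88 in 5 cells, and Ubd 95 UMIs of which 98.9% lay in 1 cell. Stromal and endothelial markers summed to 92.1 CPM with IgG and 10008 with anti-PD1 in WT tumors, and 195 and 1095 in A159V tumors, and 5 cells held 93.8% of them in WT anti-PD1. At least 1 UMI of these markers was still found in 26.6, 88.5, 34.4 and 45.5% of Treg cells, in the order of libraries. The WT anti-PD1 library held 1331 stromal cells, against 157 to 176 in the other libraries. Without cells over 10000 UMIs the stromal and endothelial sums were 98.1, 737, 189 and 195 CPM, and the interferon sums 13355, 3639, 13684 and 10752 CPM, so the interferon difference was as large without those cells. MHC class II and dendritic cell markers summed to 1677, 5170, 1831 and 5527 CPM, with at least 10 such UMIs in 7, 18, 5 and 24 Treg cells, and were higher in both antibody libraries. The part of these markers in the ratios of other genes was not tested.

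The comparison of A159V anti-PD1 with A159V IgG asks the same of the antibody in mutant tumors. Of 2484 genes 5.07% were at least 2-fold higher and 6.56% lower, with a median over all genes of 0.075. Several of the effector and suppressive genes that were low in A159V IgG stood higher in A159V anti-PD1, and both statements rest on the same A159V IgG library. Icos was at 585 CPM with IgG and 1199 CPM with the antibody, a log2 ratio of 1.03 (0.78 to 1.29). Prdm1 was at 79.6 and 199 CPM. These were the 2 of 14 effector genes past 2-fold, with a list median of 0.33. Lag3 was at 23.9 and 120 CPM, a log2 ratio of 2.28 (1.12 to 3.43), and Tigit at 43.8 and 102 CPM, the 2 of 10 suppressive genes past 2-fold. Il10 was at 95.5 and 97.1 CPM. Izumo1r was at 23.9 and 116 CPM and was the 1 of 11 identity genes, Foxp3 included, past 2-fold. Ccr2, a receptor that draws cells to inflamed tissue, was at 259 and 574 CPM, and Gpr183, an oxysterol receptor, at 107 and 218 CPM. With at least 2 Foxp3 UMIs per cell the medians of the identity, effector and suppressive lists turned to -0.41, -0.39 and -0.69. Without predicted doublets they were 0.013, 0.077 and -0.056, and without cells over 10000 UMIs 0.082, 0.025 and 0.16. Izumo1r stayed past 2-fold in 7 of 7 alternative settings, Lag3 and Prdm1 in 6, Ccr2 in 5, Tigit in 3 and Icos and Gpr183 in 2, and Gpr183 kept its direction in 6.

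Few interferon-stimulated genes were past 2-fold between the A159V libraries. Among 24 genes Rsad2 and Bst2 were lower, Gbp2 was higher (91.6 and 191 CPM), and the median was -0.14. It was 0.25 among Treg cells with a Cd4 UMI, -0.59 without predicted doublets and -0.68 with at least 2 Foxp3 UMIs. Of 8 cell cycle genes Ube2c alone was lower, at 215 and 84.9 CPM. Eno1 and Bnip3 were lower among 15 glycolysis and hypoxia genes and Fosb and Ier3 among 14 early response genes, while Nr4a3 was higher among 14 T cell receptor genes and Stat5b among 14 cytokine signaling genes. None of 13 MHC class I, 5 Th1 or 6 resting genes passed 2-fold. By the naming rule the highest ratios were those of Saa3, with 156 UMIs in 1 cell, Ust (58 UMIs in 28 cells), Cd27 (2.99), Ifitm1 (159.2 and 801 CPM, 2.32), Lag3 and Izumo1r. The lowest were Bbs2, Shisal2b, Cald1, Timm8a1, Hmgn1 and F13a1, of which Bbs2 was at 0 UMIs in A159V anti-PD1, at least 32.2-fold lower against the floor of 3 counts, from the 42 UMIs of 1 cell.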

How the data were processed

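Droplet-based 3′ single-cell RNA-seq libraries of whole tumors were analysed. The authors deposited, for each library, a filtered matrix of UMI counts over 32285 genes, made with Cell Ranger on an mm10 reference. The labels name version 5.0.1 and the file headers version 7.2.0. The study's later ambient RNA, doublet and quality filtering is not in these counts. Gene positions were those of GENCODE M21 (GRCm38).

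Here barcodes with more than 500 genes were kept. The Treg gate, the gene lists (21, of which 13 hold biology and the rest markers of other cells) and the tests were chosen with earlier results of these data known. Of the genes listed, Aldoa and Mx1 were not found by symbol. Doublets were kept in the reported values. They were scored against simulated doublets, at an expected rate of 0.8% per 1000 cells, and their removal was an alternative. Counts were summed per library and cell type as CPM. Intervals (95%) were exact Poisson for levels, exact Clopper-Pearson for shares, and large-sample log ratios for folds. They cover counting error only. Between libraries, log2 ratios used a pseudocount of 1 CPM. Conventional Cd4 T cells met the same gate with at least 1 Cd4 UMI and 0 Foxp3 UMIs. Cell types were compared with edgeR 4.0.16 (quasi-likelihood, library as a term, TMM, Benjamini-Hochberg) in R 4.3.3, with DESeq2 1.42.0 as an alternative. The edgeR step was tested on simulated counts, where it recovered 99.5% of 200 genes changed 4-fold among 6470. The simulated libraries differed only in depth, had 1 fixed dispersion, and the changed genes were at 50 CPM or more. Recovery of smaller changes was not tested. Python 3.11.15 with numpy 2.4.6, scipy 1.17.1, pandas 2.3.3 and scikit-learn 1.9.0 did the rest.

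Named genes were the 5 markers, the 6 highest and 6 lowest ratios in each comparison of libraries (at least 100 CPM in 1 of them, without gene families or genes over 5 times higher in another cell class), the 10 highest and 10 lowest edgeR changes with an adjusted p under 0.05, at least 50 CPM and the same direction in 4 of 4 libraries, and list members at 100 CPM or more. A few list genes that are counted, and a planned comparison of Treg subsets, are not reported here. Alternatives varied the minimum, scaling, cell weights, gates, doublets and libraries. Leaving out cells over 10000 UMIs was chosen after seeing the data.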

Additional observations from a re-analysis of the deposited data

Results flagged for a closer look

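In 14 of 164 list genes at the minimum level, the Treg log2 ratio of anti-PD1 over IgG pointed one way in WT tumors and the other way in A159V tumors, with each ratio past its counting error. The difference between the tumor types was not tested, since each ratio rests on 1 library per group. How many of all genes at that level did the same was not counted, so no excess among list genes is shown. In 11 of the 14 the WT ratio was negative and the A159V ratio positive. Receptors and surface molecules were Ctla4 (-0.65 in WT and 0.43 in A159V), Tnfrsf9 (-0.56 and 0.32), Ly6a (-0.97 and 0.32), Tigit (-0.46 and 1.20), Il2rg, the shared cytokine receptor chain (-0.63 and 0.47), and Il1r2, the decoy receptor for IL-1 (-0.72 and 0.70). Fgl2, a secreted suppressive protein, was at -0.69 and 0.49. Genes of the interferon and antigen presentation lists were Gbp7 (-0.47 and 0.55), H2-K1 (-0.26 and 0.20), Tapbp (-0.33 and 0.42) and Psme1 (-0.56 and 0.46). The 3 genes with the opposite order were Itga4 (1.24 and -0.89), Egr1 (1.02 and -0.79) and Dusp1 (0.57 and -0.43). Of the 7 alternative settings, all 7 kept the opposite signs for Tigit, Itga4, Il2rg, Il1r2, Tapbp and Psme1, 4 did so for Ly6a, and 6 for each of the others.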

How the results depend on the processing

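No paired analysis was possible because each group had 1 library, and the library term stood in for a block in the comparison of cell types. The Treg share ratio of A159V IgG to WT IgG was 0.427 over all cells and 0.236 with at least 2 Foxp3 UMIs (0.319 per CD8 T cell). In WT tumors the ratio of anti-PD1 to IgG was 1.37 over all cells and 1.32 with at least 2 Foxp3 UMIs, and in A159V tumors 4.0 with at least 2 Foxp3 UMIs (3.16 per CD8 T cell). Counts of genes past 2-fold, higher and lower in the order A159V over WT, WT anti-PD1 and A159V anti-PD1, were 450 and 196, 486 and 390, 283 and 386 at 50 CPM, and 79 and 36, 88 and 139, 43 and 63 at 200 CPM. In A159V over WT they were 395 and 272 with at least 2 Foxp3 UMIs, 304 and 218 with a Cd4 UMI, and 144 lower under median-of-ratios scaling. In A159V anti-PD1 they were 312 and 378 with at least 2 Foxp3 UMIs, 334 and 367 with a Cd4 UMI, 72 and 79 without cells over 10000 UMIs, and 94 lower with cells weighted equally and 108 lower without doublets. Treg against conventional Cd4 T cells gave 36 higher in DESeq2, 242 and 250 with no expression filter, 0 and 8 with no replicate block for library, 10 to 45 higher and 32 to 79 lower without 1 library, 60 lower with at least 2 Foxp3 UMIs, and 129 and 153 without cells over 10000 UMIs. Of the named genes, 208 of 251 edgeR values kept their call, 43 lost it and none reversed. Of 315 ratios, 244 were stable, 54 moved and 17 reversed, the last in genes of few cells. Without doublets, then without cells over 10000 UMIs, A159V over WT was -1.63 and -1.76 for Bbs2 and -2.87 and -2.53 for Shisal2b, and Gdf15 was -2.87 without doublets. Cald1 was -2.25 with at least 2 Foxp3 UMIs. Without cells over 10000 UMIs Mfap5 was -1.76 in WT anti-PD1 and Saa3 -2.72 in A159V anti-PD1. In A159V anti-PD1, with at least 2 Foxp3 UMIs, without doublets and without those cells, Shisal2b was 4.01, 3.90 and 4.21 and Cald1 4.01, 0.44 and 0.058, while Timm8a1 was 4.56 and Hmgn1 0.28 with at least 2 Foxp3 UMIs and F13a1 1.62 with a Cd4 UMI. The cause was not tested. The 61 Treg cells of A159V IgG set the precision of every comparison that uses them.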
